A study of Mus musculus with 4 samples.

Results

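The Bcl2 family genes described here are 10 genes taken by symbol from the deposited expression table, 10 of 56691 genes. They are 3 effectors (Bax, Bak1 and Bok), 4 BH3-only genes (Bbc3, Pmaip1, Bid and Bcl2l11) and 3 anti-apoptotic genes (Bcl2, Bcl2l1 and Mcl1). Expression was measured by RNA-seq in 4 sarcomas of W/+ mice, which carry 1 knock-in Trp53 allele (p53R282W/+ in the labels, written p53-R279W by the study after the mouse residue) beside the wild-type allele. ATO 1 and ATO 2 came from mice given arsenic trioxide (ATO) in their drinking water, and PBS 1 and PBS 2 from the control group, whose treatment is labelled PBS and which the study calls untreated. All 4 sarcomas came from mice with the mutation, so no tumor of a wild-type mouse served as a control. The sarcomas arose spontaneously, and the labels give neither the type of each sarcoma nor the age or sex of the mouse. The labels also list, for all 4 samples, a culture protocol with dexamethasone and insulin that the study does not describe for tumor tissue.

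The family decides whether the outer membrane of the mitochondrion is opened during apoptosis. Bax and Bak1 build the pores through which cytochrome c leaves, the anti-apoptotic proteins hold them in check, and the BH3-only proteins relay stress by binding either side. p53 is known to induce Bax, Bbc3 (Puma) and Pmaip1 (Noxa), which is why these genes are read out when the function of a mutant p53 is followed.

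What the members share in sequence is the BH3 core, a short helix through which they bind each other. It is shown here as coding bases, 5′ to 3′, because it is the part by which the effectors, the BH3-only genes and the anti-apoptotic genes are recognised as relatives. Each line gives 36 bases of the GENCODE M21 transcript with the longest coding sequence among its principal transcripts, and the capitals mark the codon of the core leucine and, 4 residues on, the codons of a glycine or alanine and of an aspartate, the pattern by which the core was found.
Bax: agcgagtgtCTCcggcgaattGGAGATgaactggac
Bak1: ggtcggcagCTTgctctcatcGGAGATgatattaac
Bok: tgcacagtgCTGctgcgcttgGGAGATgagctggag
Bbc3: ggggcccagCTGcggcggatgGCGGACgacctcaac
Bid: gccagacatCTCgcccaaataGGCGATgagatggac
Bcl2l11: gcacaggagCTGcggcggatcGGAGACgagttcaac
Bcl2: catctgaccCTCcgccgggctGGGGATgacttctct
Bcl2l1: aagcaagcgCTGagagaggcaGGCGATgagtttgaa
Mcl1: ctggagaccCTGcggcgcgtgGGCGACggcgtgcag
The last codon pair encoded glycine and aspartate in 8 of these 9 genes, and alanine and aspartate in Bbc3. No bases are printed for Pmaip1, whose transcript held the pattern 2 times. The leucine was residue 63 of 192 in Bax, 76 of 209 in Bak1 and 71 of 213 in Bok. It was residue 141 of 193 in Bbc3 and 194 of 331 in Mcl1, which has a long stretch before it. The stretch of Bok lies on chromosome 1 of GRCm38 between 93686648 and 93689170 and is interrupted by an intron, while the stretch of Mcl1 lies in 1 exon (chromosome 3, 95659427 to 95659462).

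All 10 genes were measured in every sarcoma. The lowest read count was 104, for Bbc3 in ATO 2, at which counting alone gives an error of 9.81%, and the highest was 10952, for Mcl1 in PBS 2. Levels of different genes were compared as FPKM, which scales a count to the library total and to the exonic length of the gene. Mcl1, a short-lived guard of Bak1, was the most abundant member by far, with 112.8 FPKM in ATO 1, 144.7 in ATO 2, 128.4 in PBS 1 and 178.3 in PBS 2. Its range did not meet that of any other member.

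Bax and Bak1 came next, with means over the 4 sarcomas of 33.2 ± 11.2 and 32.1 ± 12.9 FPKM (SD, n = 4), followed by Bcl2l1, which encodes Bcl-xL, with 17.5 ± 8.31 FPKM (SD, n = 4). Bok had 13.3 ± 8.76 and Bcl2l11, which encodes Bim, 8.82 ± 3.44 FPKM (SD, n = 4). Bid, Pmaip1 and Bbc3 had means of 6.69, 5.22 and 4.71 FPKM. Bcl2 was the least abundant member in each of the 4 sarcomas, with 3.63 FPKM in ATO 1, 0.88 in ATO 2, 1.70 in PBS 1 and 3.24 in PBS 2. From Bax down to Bcl2, the ranges of neighbours in this order overlapped between sarcomas. Within a sarcoma, Mcl1 was the highest and Bcl2 the lowest in all 4, while every other pair of neighbours held this order in 3.

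**Figure D1:**
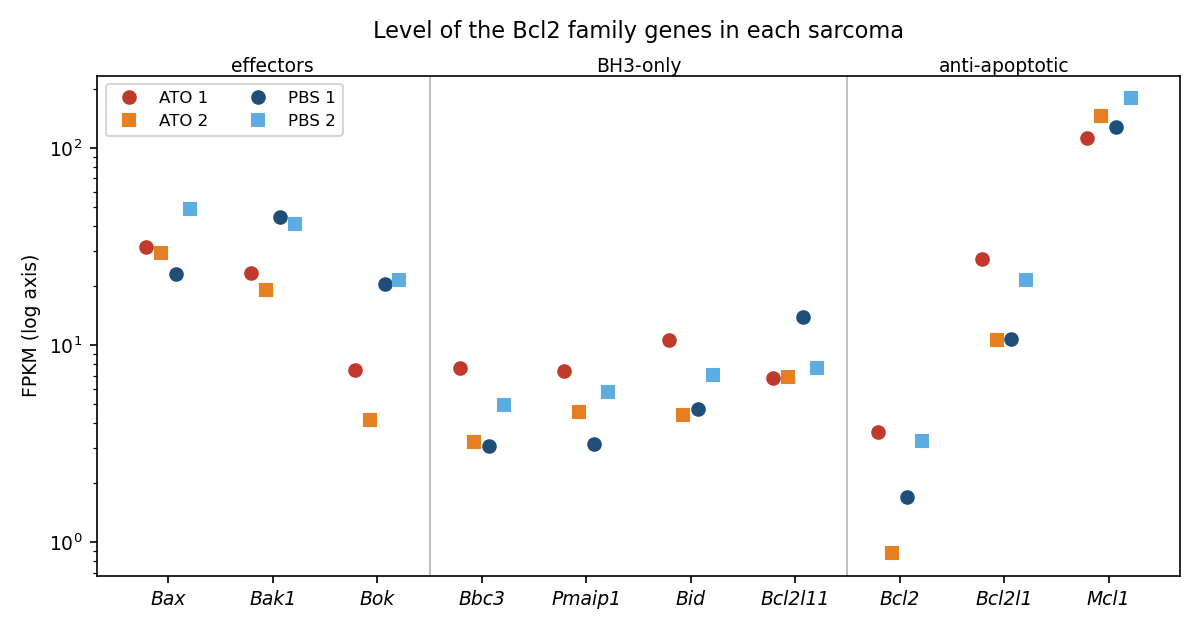
FPKM of the 10 Bcl2 family genes (x axis, grouped by role) in each sarcoma, on a log axis, 1 point per sarcoma. Mcl1 lies at 112.8 FPKM or above in all 4 sarcomas, Bcl2 at 3.63 or below, and Bak1 and Bok are lower in both ATO than in both PBS sarcomas.

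Mcl1 therefore held most of the anti-apoptotic level. It made up 78.4% of the summed FPKM of the 3 anti-apoptotic genes in ATO 1, 92.7% in ATO 2, 91.2% in PBS 1 and 87.9% in PBS 2. Bcl2l1 made up 19.1% in ATO 1 and 6.76% to 10.5% elsewhere. Bcl2, the founding member of the family, made up between 0.564% and 2.52%. The makeup of the effectors differed more. Bax was the largest part in ATO 1 (50.5%), ATO 2 (56.0%) and PBS 2 (44.0%), but Bak1 was in PBS 1 (50.9%). Among the BH3-only genes, Bcl2l11 was the largest part in ATO 2 (36.2%), PBS 1 (56.0%) and PBS 2 (30.0%), and Bid in ATO 1 (32.7%).

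The treated and control sarcomas were compared to ask whether the family changed with ATO, with edgeR's quasi-likelihood test on the read counts of 17188 genes, which all 10 members entered. In this comparison, levels of a member across sarcomas are given as CPM, counts scaled to library size with the TMM factors. These factors offset a difference in composition between libraries. Levels of genes outside the 10 members are given as FPKM, which lacks these factors, while all edgeR fold changes use them. The order of 2 close FPKM values can therefore differ from that by CPM. Of the 10 members 0 passed an adjusted p of 0.05, against 0% of all genes tested. In DESeq2, 0 of the 10 members passed as well, against 4.12% of the genes that received an adjusted p there. At an unadjusted p under 0.05, 0 members were higher in ATO (5.44% of all genes) and 1 member, Bok, was lower (3.07% of all genes). The median log2 fold change of the members was 0.06, beside -0.02 over all genes tested. The spread of the whole table was large, with a biological coefficient of variation of 62.5% between sarcomas of the same group. With 2 sarcomas per group, a difference that missed the threshold is not shown to be absent, and the 95% intervals below give the range these data allow.

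**Figure D2:**
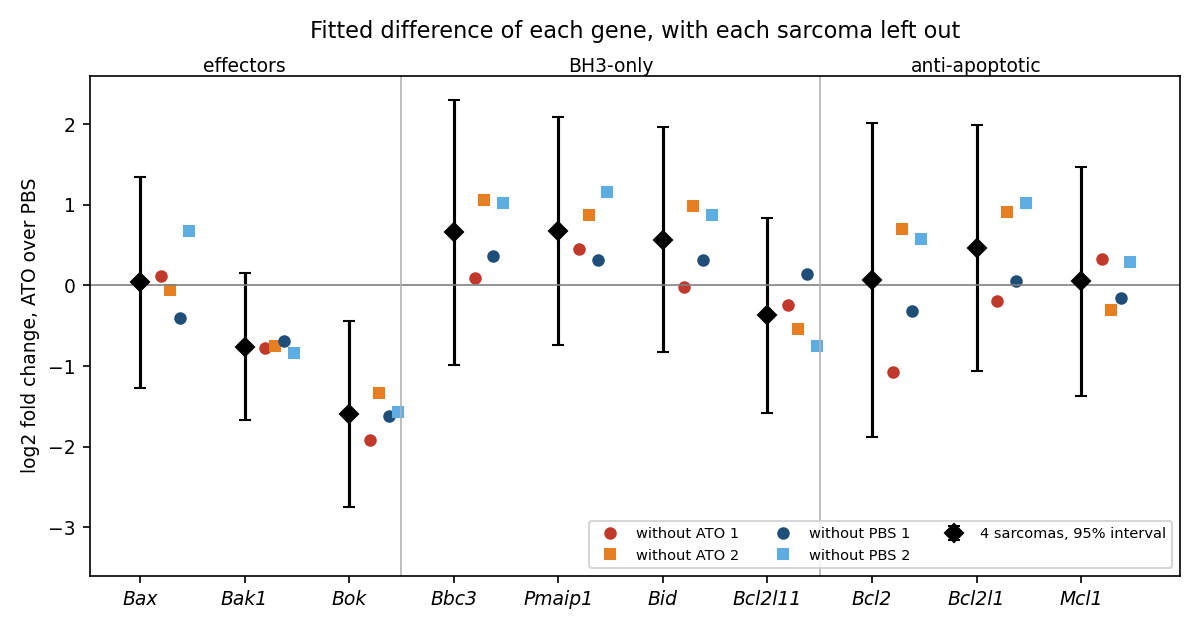
Fitted log2 fold change of each gene (ATO over PBS, y axis), as black diamonds with 95% intervals from edgeR, and as coloured points with 1 sarcoma left out in turn. Bak1 and Bok stay below 0 in all 4 reduced fits, Bbc3 and Pmaip1 stay above 0, and Bax, Bid, Bcl2l11, Bcl2, Bcl2l1 and Mcl1 change sign in at least 1. The groups of Bak1, Bok and Pmaip1 do not overlap by CPM, so their sign could hardly turn in a reduced fit.

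The effectors Bok and Bak1 were lower in both ATO sarcomas. Bok, a relative of Bax and Bak1 that sits largely at the endoplasmic reticulum (ENSMUSG00000026278; GRCm38 chromosome 1, 93685660 to 93695764), had 13.7 CPM in ATO 1, 9.38 in ATO 2, 34.4 in PBS 1 and 35.5 in PBS 2. The PBS sarcomas were nearly equal and both lay above either ATO sarcoma. The ATO sarcomas averaged 11.6 ± 3.08 CPM (SD, n = 2) and the PBS sarcomas 34.9 ± 0.797 (SD, n = 2). The fitted log2 difference was -1.59 (SE 0.44, 95% interval -2.74 to -0.44, edgeR adjusted p 0.570, unadjusted 0.0168). PBS was thus 3.02-fold higher in the fit. With each sarcoma left out the log2 fold change stayed between -1.91 and -1.34.

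Bak1 (ENSMUSG00000057789; chromosome 17, 27019810 to 27029009) had 55.8 CPM in ATO 1, 55.7 in ATO 2, 98.9 in PBS 1 and 90.1 in PBS 2. It was the member whose sarcomas of the same group agreed most closely, at 55.7 ± 0.0482 CPM on average for ATO and 94.5 ± 6.25 for PBS (SD, n = 2 each). Its log2 fold change was -0.76 (SE 0.35, 95% interval -1.67 to 0.15, edgeR adjusted p 0.610), and PBS was 1.70-fold higher. It stayed between -0.83 and -0.69 with each sarcoma left out. Bok and Bak1 were the 2 members whose difference between group means on a log2 scale exceeded the difference between sarcomas within either group. The share of all genes tested for which this held was not counted. By CPM, 20.2% of all genes tested had both ATO sarcomas below both PBS sarcomas, as Bok and Bak1 had.

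These differences stand beside others in the same sarcomas. Skeletal muscle markers (8 genes) summed to 15147 and 1019 FPKM in ATO 1 and ATO 2 and to 7.62 and 129.2 in PBS 1 and PBS 2. Adipocyte markers (5 genes) summed to 228.7 and 1368 FPKM in ATO and to 12.7 and 66.2 in PBS, with Lep at 0 in both PBS sarcomas and Plin1 at 0 in PBS 1. In both ATO sarcomas all 8 muscle and all 5 adipocyte markers lay above both PBS sarcomas, and all of them passed an adjusted p of 0.05 in DESeq2 and 0 in edgeR, where 7 and 5 had an unadjusted p under 0.05. Leukocyte markers (7 genes) summed to 111.2 and 165.3 FPKM in ATO and 125.4 and 97.8 in PBS, and endothelial markers to 68.7 and 138.2 in ATO and 94.3 and 892.7 in PBS. Proliferation markers (5 genes) summed to 125.9 and 28.3 in ATO and 114.2 and 81.7 in PBS. Of the 6 mesenchymal markers fixed for the label sarcoma, all were detected in each sarcoma, summing to 3979 and 1166 FPKM in ATO and 4861 and 1483 in PBS, and 2 of the 6 (Vim and Pdgfrb) lay below both PBS sarcomas in both ATO sarcomas, beside 20.2% of all genes by CPM, while Col1a1, Col1a2, Col3a1 and Pdgfra overlapped between the groups. The part of tissue makeup in the lower Bok and Bak1 levels was not tested, and in bulk tissue fewer cells of a type and less RNA per cell cannot be told apart.

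Bax, the third effector and a p53 target (ENSMUSG00000003873; chromosome 7, 45461697 to 45466898), had 49.2 CPM in ATO 1, 56.7 in ATO 2, 33.0 in PBS 1 and 70.1 in PBS 2. Both ATO sarcomas lay between the PBS sarcomas, which differed 2.12-fold. Its log2 fold change was 0.04 (SE 0.50, 95% interval -1.27 to 1.34, edgeR adjusted p 0.989), and it ranged from -0.41 without PBS 1 to 0.67 without PBS 2. It was -0.06 without ATO 2.

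The BH3-only genes Bbc3, Pmaip1 and Bid had higher fitted levels in ATO, and 0 of the 3 passed the test. Pmaip1, whose product Noxa binds Mcl1 by preference (ENSMUSG00000024521), had 20.2 CPM in ATO 1, 15.3 in ATO 2, 7.94 in PBS 1 and 14.2 in PBS 2. Both ATO sarcomas lay above both PBS sarcomas on this scale, but ATO 2 and PBS 2 were close, and by FPKM their order turned (4.58 in ATO 2, 5.74 in PBS 2). Its log2 fold change was 0.68 (SE 0.54, 95% interval -0.73 to 2.09, edgeR adjusted p 0.752), and it was 0.32 without PBS 1 and 1.15 without PBS 2.

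Bbc3, which encodes Puma, a binder of all anti-apoptotic members (ENSMUSG00000002083; chromosome 7, 16308393 to 16318205), had 16.1 CPM in ATO 1, 8.33 in ATO 2, 6.0 in PBS 1 and 9.47 in PBS 2. ATO 1 was the high sarcoma, and ATO 2 lay between the PBS sarcomas. The log2 fold change was 0.66 (SE 0.63, 95% interval -0.98 to 2.30, edgeR adjusted p 0.798), and it was 0.09 without ATO 1.

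Bid, which caspase-8 cleaves to link death receptors to mitochondria (ENSMUSG00000004446; chromosome 6, 120891930 to 120916853), followed the same order of sarcomas, with 37.4 CPM in ATO 1, 19.1 in ATO 2, 15.4 in PBS 1 and 22.8 in PBS 2. Its log2 fold change was 0.57 (SE 0.53, 95% interval -0.83 to 1.97, edgeR adjusted p 0.796) and -0.01 without ATO 1. Bid shares 628 exonic bases with Bcl2l13 on the opposite strand, and whether the counting used strand is not given in the sources used here, so its counts are uncertain to that extent.

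Bcl2l11 (Bim), a BH3-only gene known to respond to growth factor loss and to Foxo factors (ENSMUSG00000027381; chromosome 2, 128126038 to 128162547), had a lower fitted level in ATO, with 54.3 CPM in ATO 1, 67.9 in ATO 2, 102.8 in PBS 1 and 55.4 in PBS 2. PBS 1 was the high sarcoma and the other 3 were close to each other. The log2 fold change was -0.37 (SE 0.46, 95% interval -1.58 to 0.83, edgeR adjusted p 0.848), and 0.14 without PBS 1.

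Of the anti-apoptotic genes 0 of 3 separated the groups. By CPM, both ATO sarcomas lay above both PBS sarcomas for 19.7% of all genes tested and below for 20.2%. Mcl1 (ENSMUSG00000038612; chromosome 3, 95658788 to 95663176) had 384.0 CPM in ATO 1, 604.9 in ATO 2, 403.2 in PBS 1 and 551.8 in PBS 2, so that both PBS sarcomas lay between the ATO sarcomas. Its log2 fold change was 0.05 (SE 0.54, 95% interval -1.37 to 1.47, edgeR adjusted p 0.986). Bcl2 (ENSMUSG00000057329; chromosome 1, 106538178 to 106714274) had 33.1 CPM in ATO 1, 9.86 in ATO 2, 14.3 in PBS 1 and 26.9 in PBS 2. The ATO sarcomas were the highest and the lowest of the 4 and differed 3.36-fold, the widest difference within a group among the members. The log2 fold change of Bcl2 was 0.06 (SE 0.74, 95% interval -1.88 to 2.01, edgeR adjusted p 0.988), with -1.08 without ATO 1 and 0.69 without ATO 2.

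Bcl2l1 (ENSMUSG00000007659; chromosome 2, 152780668 to 152831728) had 125.1 CPM in ATO 1, 59.2 in ATO 2, 45.1 in PBS 1 and 88.7 in PBS 2. The log2 fold change was 0.46 (SE 0.58, 95% interval -1.07 to 1.99, edgeR adjusted p 0.853), and -0.19 without ATO 1. ATO 1 and PBS 2 were the high sarcomas, as they were for erythroid markers (5 genes), which summed to 10913 FPKM in ATO 1, 1127 in ATO 2, 298.1 in PBS 1 and 19827 in PBS 2. The highest was ATO 1 for Bcl2l1 but PBS 2 for the erythroid markers. ATO 1 and PBS 2 were also the high sarcomas for Bbc3, Bid and Bcl2. Bcl-xL is known to keep maturing erythroid cells alive, and the part of blood cells in the Bcl2l1 level was not tested.

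The sarcomas thus differed in the same way for several members. By CPM, ATO 1 was the highest sarcoma for 5 of the 10 members (Bbc3, Pmaip1, Bid, Bcl2 and Bcl2l1), as for 23.9% of all genes tested, and PBS 1 was the lowest for 5 (Bax, Bbc3, Pmaip1, Bid and Bcl2l1), as for 28.6%. Bbc3, Bid and Bcl2l1 had the same order of all 4 sarcomas (ATO 1, PBS 2, ATO 2, PBS 1), which 4.55% of all genes tested had. These positions and this order were picked after the values were seen, as those with the most members. The shares of all genes beside them are therefore a description and no test. The median absolute log2 difference of a member was 0.59 between the ATO sarcomas and 0.71 between the PBS sarcomas, and 0.47 between the group means. Over all genes tested these medians were 0.60, 0.56 and 0.49.

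**Figure D3:**
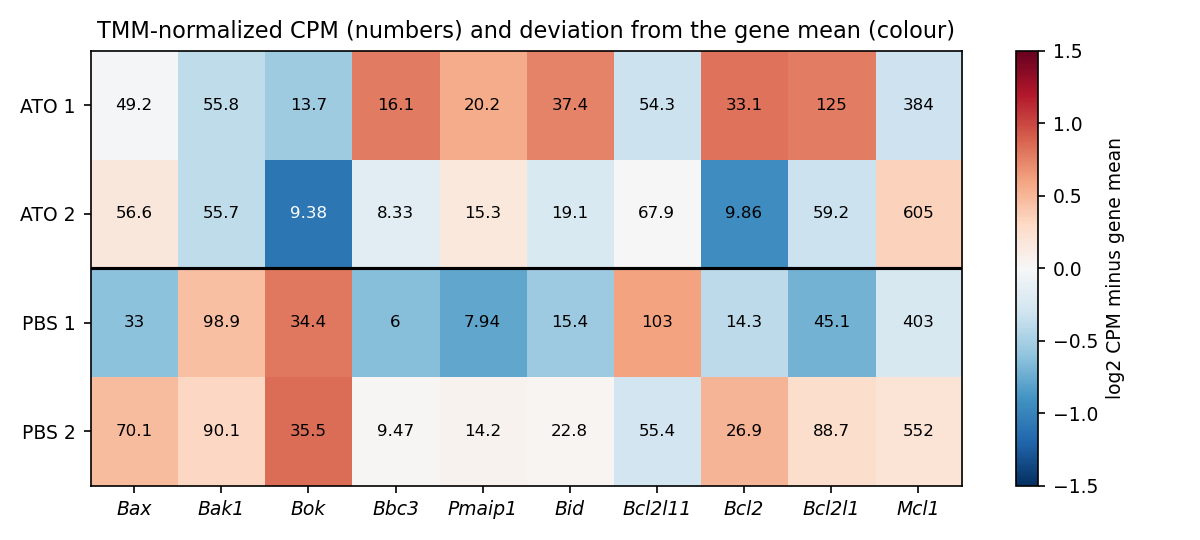
TMM-normalized CPM of the 10 genes (columns) in the 4 sarcomas (rows), with colour giving log2 CPM minus the mean of the gene over the 4 sarcomas. Bok and Bak1 are blue in both ATO rows and red in both PBS rows, while Bbc3, Bid and Bcl2l1 are red in ATO 1 and blue in PBS 1.

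How many members separated the groups depended on the scale. By CPM both ATO sarcomas lay above both PBS sarcomas for 1 member, Pmaip1 (19.7% of all genes tested did so), and below for 2, Bok and Bak1 (20.2%). By FPKM 0 members lay above (12.8%) and 3 lay below, Bok, Bak1 and Bcl2l11 (29.6%). The shares of members, 1 and 2 of 10 by CPM, were near those of all genes. The scales differ because FPKM is divided by the total count alone, while CPM also uses the TMM factors. These were 1.007 in ATO 1, 0.822 in ATO 2, 1.091 in PBS 1 and 1.108 in PBS 2. In ATO 2 mitochondrially encoded genes took 14.7% of the counts, against 1.98% to 2.59% in the other sarcomas. The part of this share in the factor of ATO 2 was not tested. Bok and Bak1 were the members below on both scales.

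Ratios within a sarcoma do not depend on such scaling, and the balance of pro- to anti-apoptotic genes was therefore also compared as 7 ratios of FPKM. Summed over the 3 effectors and over the 3 anti-apoptotic genes, the ratio was 0.432 in ATO 1, 0.336 in ATO 2, 0.624 in PBS 1 and 0.551 in PBS 2. Both ATO sarcomas were lower, by a mean of 0.62 on the log2 scale (ATO -1.39 ± 0.256, PBS -0.77 ± 0.128, SD, n = 2 each). The exact two-sided permutation p was 0.333, the smallest that 2 against 2 sarcomas allow, and 0.778 after Benjamini-Hochberg adjustment over the 7 ratios.

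The ratio of Bak1 to Bcl2l1 was 0.849 in ATO 1, 1.79 in ATO 2, 4.18 in PBS 1 and 1.94 in PBS 2. The ratio of Bak1 to Mcl1, whose products bind each other, was 0.206 and 0.131 in ATO and 0.348 and 0.232 in PBS. In both ratios the ATO sarcomas lay below the PBS sarcomas, with differences in mean log2 ratio of -1.21 and -0.79 and the same exact permutation p of 0.333 for n = 2 against 2. Bak1 is in the numerator of both, and of the ratio of summed effectors, so these ratios are not separate from its lower level. The ratios without Bak1 had overlapping groups.

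The ratio of Bax to Bcl2, often read as the balance of cell death, was 8.64 in ATO 1 and 33.4 in ATO 2, outside the PBS values of 13.4 and 15.2 on either side. The exact permutation p of this ratio was 1.00 (n = 2 against 2). Bax to Bcl2l1 was likewise lowest in ATO 1 (1.15) and highest in ATO 2 (2.78). Bax to Mcl1 ranged from 0.178 in PBS 1 to 0.278 in ATO 1, and summed BH3-only to summed anti-apoptotic genes from 0.122 in ATO 2 to 0.225 in ATO 1, with overlapping groups in both.

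**Figure D4:**
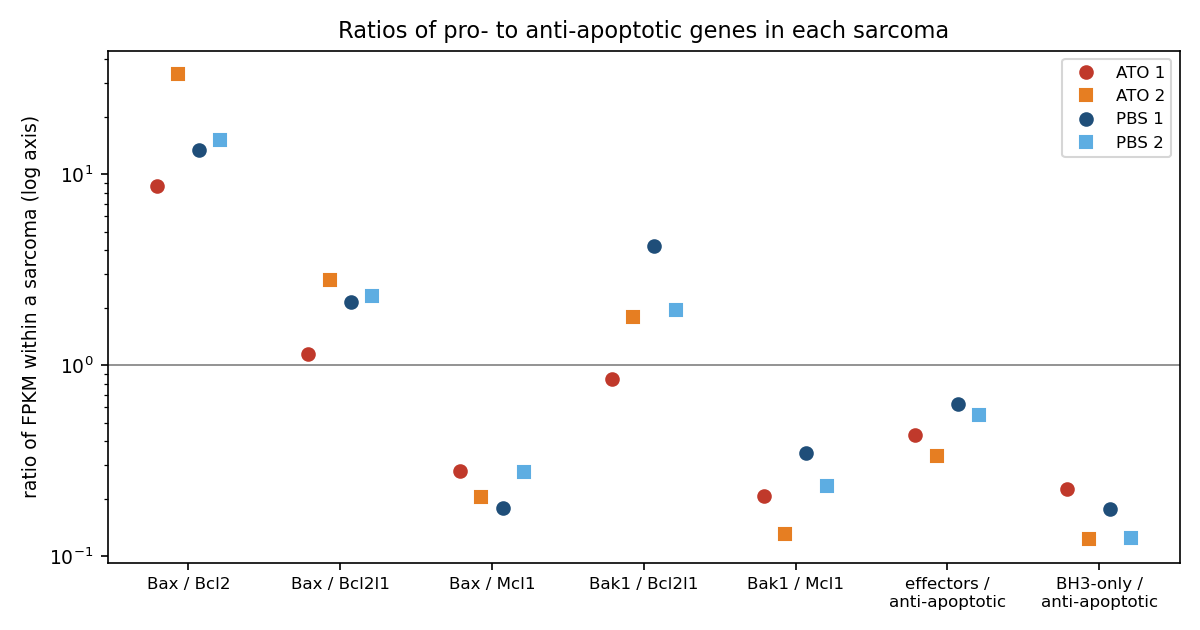
Ratios of FPKM within each sarcoma (y axis, log scale, grey line at 1) for 5 pairs of genes and 2 pairs of sums, 1 point per sarcoma. Effectors over anti-apoptotic genes are 0.336 and 0.432 in ATO against 0.551 and 0.624 in PBS, while Bax over Bcl2 has its lowest and highest values in the ATO sarcomas.

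The rest of the Bcl2 family was read from a list of 15 further genes, of which 12 were tested. Of these 7 were higher and 5 lower in the fit, with a median log2 fold change of 0.59. In edgeR 0 passed an adjusted p of 0.05 and 1, Bnip3, an unadjusted p of 0.05, and in DESeq2 0 passed. Hrk, Bcl2l10 and Bcl2l14 were not tested, with at most 13 counts in a sarcoma. The largest values among higher genes were Bcl2a1a (log2 fold change 2.38, SE 1.01, edgeR adjusted p 0.597) and Bnip3 (1.74, SE 0.61, edgeR adjusted p 0.570). Bcl2a1a, an anti-apoptotic gene of myeloid cells, had 1.89 FPKM in ATO 1, 7.68 in ATO 2, 1.19 in PBS 1 and 1.15 in PBS 2. It has near-identical copies, Bcl2a1b and Bcl2a1d, whose groups overlapped. Bcl2a1b had 8.98 FPKM in ATO 1, 31.36 in ATO 2, 18.15 in PBS 1 and 11.44 in PBS 2. Bcl2a1d had 1.28 FPKM in ATO 1, 7.21 in ATO 2, 0.93 in PBS 1 and 2.58 in PBS 2. How reads that match several copies were counted is not given in the sources used here, so the value of a single copy is uncertain. Of the 7 leukocyte markers, Adgre1 and Itgam were also highest in ATO 2 (53.9 and 38.0 FPKM), while the macrophage marker Csf1r was not (61.7 in ATO 2, 76.1 in ATO 1 and 76.2 in PBS 1) and Ptprc was highest in PBS 2 (21.01). The part of leukocytes was not tested.

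Bnip3, a mitochondrial relative of the BH3-only genes that is induced by hypoxia, had 148.0 FPKM in ATO 1, 92.8 in ATO 2, 24.4 in PBS 1 and 61.3 in PBS 2, and both ATO sarcomas lay above both PBS sarcomas. Bik (log2 fold change -0.997, SE 0.97, edgeR adjusted p 0.802) and Bcl2l12 (-0.45, SE 0.47, edgeR adjusted p 0.818) had the largest values among lower genes. Bik had 1.18 FPKM in ATO 1, 1.24 in ATO 2, 0.97 in PBS 1 and 4.93 in PBS 2. Only PBS 2 thus lay above the ATO sarcomas for Bik.

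Downstream of the family, 16 genes of mitochondrial release and the apoptosome were tested, of which 10 were higher and 6 lower with a median log2 fold change of 0.33. In edgeR 0 passed an adjusted p of 0.05 and 1 an unadjusted p of 0.05, and in DESeq2 0 passed. Cycs, the gene of cytochrome c, had 18.4 FPKM in ATO 1, 108.9 in ATO 2, 14.01 in PBS 1 and 15.4 in PBS 2 (log2 fold change 2.497, SE 1.01, edgeR adjusted p 0.592). Endog, which encodes a mitochondrial nuclease, had 5.14 and 20.96 FPKM in ATO and 4.36 and 5.29 in PBS (log2 fold change 1.80, SE 0.91, edgeR adjusted p 0.639). Both were highest in ATO 2, the sarcoma with the high share of mitochondrially encoded counts. Apaf1, the scaffold of the apoptosome, had 5.16 and 3.93 FPKM in ATO and 6.53 and 11.5 in PBS (log2 fold change -0.72, SE 0.43, edgeR adjusted p 0.683).

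Of 11 transcription factors known to act on the family, 10 were tested, 3 were higher and 7 lower, with a median log2 fold change of -0.27. In edgeR 0 passed an adjusted p of 0.05 and 1, Trp53, an unadjusted p of 0.05, and in DESeq2 0 passed. Trp53 itself had 13.7 and 11.6 FPKM in ATO and 43.6 and 44.6 in PBS (log2 fold change -1.53, SE 0.37, edgeR adjusted p 0.570), so that its level, like that of Bok, was lower in both ATO sarcomas. RNA of the mutant allele and of any wild-type allele is counted together. Whether each sarcoma kept the wild-type allele is not given in the sources used here. Myc, a driver of growth that also sensitises cells to apoptosis, was at -1.20 on the log2 scale (ATO over PBS, SE 0.64, edgeR adjusted p 0.651). Foxo1, a factor that acts on Bcl2l11 and Bbc3, had 13.1 and 4.69 FPKM in ATO and 3.05 and 4.60 in PBS (log2 fold change 1.43, SE 0.56, edgeR adjusted p 0.585). Ddit3 followed among the higher factors (log2 fold change 0.51, SE 0.39, edgeR adjusted p 0.746).

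The promoter of Bok is shown as that of the member with the largest difference, and the promoter of Bax as that of a member in which p53 response elements are known. Promoter windows reach from 250 bases before to 50 after a RefSeq start (GRCm38.p6), and 9 of the 10 members were matched. The 250 bases before the start are printed 5′ to 3′ on the strand of the gene. The windows were searched on both strands for the p53 half-site, the Foxo site GTAAACA, the E-box CACGTG and the GC box GGGCGG, and the capitals mark every match in the printed bases. Bok lies on the plus strand (chr1:93685325-93685574) and Bax on the minus strand (chr7:45466899-45467148).
Bok: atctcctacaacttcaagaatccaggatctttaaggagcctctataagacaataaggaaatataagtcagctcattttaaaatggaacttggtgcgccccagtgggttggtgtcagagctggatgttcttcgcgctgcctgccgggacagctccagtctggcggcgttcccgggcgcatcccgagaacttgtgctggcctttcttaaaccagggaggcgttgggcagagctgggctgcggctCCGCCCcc
Bax: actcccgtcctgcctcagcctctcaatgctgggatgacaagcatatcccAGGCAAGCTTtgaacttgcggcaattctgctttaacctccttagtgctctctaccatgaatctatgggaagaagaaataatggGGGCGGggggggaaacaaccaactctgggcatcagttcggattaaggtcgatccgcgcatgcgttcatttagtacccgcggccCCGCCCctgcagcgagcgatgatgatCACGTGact
The p53 half-site was found in the window of Bax, at position -201 from the start, and in no window of the other 8 matched members. It occurred in 8.36% of the 32851 promoter windows of the table. The E-box was found in Bax and in 1 of 3 windows of Bbc3 (7.15% of all windows), and the Foxo site in 1 window each of Bcl2l11 and Bbc3 (3.65%). The GC box was found 1 time in Bok and 3 times in Bax, 1 of these after the start (in 35.7% of all windows). The window of Bak1 and all windows of Bcl2l1 held none of the 4 motifs. A match describes the letters only, and response elements outside these windows were not searched.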

How the data were processed

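RNA-seq data of 4 sarcomas (2 per group, grouped by the treatment in their titles) were analysed. Per the methods and the processing notes, the authors trimmed reads with Cutadapt 1.9.1, aligned them with HISAT2 2.0.1 and counted them per gene with HTSeq, and they deposited the raw counts. The authors also deposited FPKM, and the deposited FPKM equalled count over exonic gene size and total count to within rounding for every gene. Strand setting and multimapping reads are not given in the sources used here. The notes name GRCm38, while 2.83% of 52073 shared genes have the GENCODE M21 position, so positions come from GENCODE M21 by gene identifier.

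Total counts ranged from 15259695 to 18134000. The limit that a count of 0 allows, 3 counts, corresponded to between 0.165 and 0.197 CPM before TMM scaling, and covers counting error only.

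Genes past filterByExpr (17188) entered the quasi-likelihood F-test of edgeR 4.0.16 (R 4.3.3) on counts with TMM factors, and p-values were adjusted by Benjamini-Hochberg over these genes at a threshold of 0.05. SE is the log2 fold change over the root of F. Alternatives were DESeq2 1.42.0, limma 3.58.1 and others named in the closing section. The fits were tested on simulated data. The edgeR p-values weigh a difference between groups against the spread between sarcomas of a group, estimated with information shared across genes. They cover the sarcomas sampled only. The named genes are the members and, of each pathway list, the genes with the largest values in each direction, up to 2, of which 1 gene is not reported here. Vim, Pdgfrb, Adgre1, Itgam and the other single marker genes were named after their values were seen. Members and lists were chosen with earlier results of these data known.

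Bax, Bak1 and Bcl2 also share exonic bases with annotated neighbours (Gm45808, Ggnbp1 and D630008O14Rik), each of which had at most 95 counts in a sarcoma. Sequences were taken from RefSeq windows of GRCm38.p6 and GENCODE transcripts, and Pmaip1 was not searched. Ratios and figures were made in Python 3.11.15.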

Additional observations from a re-analysis of the deposited data

How the results depend on the processing

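The replicate numbers of the labels are not said to pair the sarcomas, and same-numbered sarcomas deviated from their group means with a correlation of -0.02. With the replicate block, 0 of 10 members passed, and Bcl2 had a log2 fold change of -0.11. The number of members past the threshold was 0 under all 12 alternatives to the edgeR comparison. The number of all genes past it was 753 with DESeq2, and it was 541 when no filter on low counts was set. The cause of these numbers was not tested, and the other alternatives gave 0. The number of members with a higher fitted level was 7, and 4 in limma with either pseudocount, where Bax (-0.14 and -0.14), Bcl2 (-0.20 and -0.36) and Mcl1 (-0.24 and -0.24, pseudocounts of 1 and 0.1) were lower. The median of all genes moved from -0.02 to -0.23 and -0.28 in these fits, which use FPKM without TMM scaling. With each sarcoma left out, 1 group holds a lone sarcoma that is assumed to vary like the others. The number of higher members then ranged from 4 (without ATO 1) to 7, and their median log2 fold change from -0.10 to 0.63 (without PBS 2). The ranges for the members that changed sign were -0.41 to 0.67 for Bax, -0.015 to 0.98 for Bid, -0.76 to 0.14 for Bcl2l11, -1.08 to 0.69 for Bcl2, -0.19 to 1.03 for Bcl2l1 and -0.31 to 0.33 for Mcl1. Bok, Bak1, Bbc3 and Pmaip1 kept their direction in all 12 alternatives. For Bok, Bak1 and Pmaip1, whose groups do not overlap by CPM, leaving a sarcoma out could hardly have turned it. The number of members with both ATO sarcomas above both PBS sarcomas was 1 by CPM and with DESeq2 size factors and 0 by deposited FPKM. Of the 7 ratios, 4 changed sign with a sarcoma left out, where the log2 difference ranged from -0.72 to 1.23 for Bax to Bcl2, -0.95 to 0.33 for Bax to Bcl2l1, -0.21 to 0.42 for Bax to Mcl1 and -0.28 to 0.60 for summed BH3-only to anti-apoptotic genes. The last was -0.086 from sums of counts. The 3 ratios whose groups do not overlap kept their sign, which leaving a sarcoma out cannot turn when groups do not overlap. For Bok the adjusted p ranged from 0.160 in DESeq2 to 0.872 over the alternatives. Counting error was at most 9.81% for a member, and the spread between the ATO sarcomas for Bak1 and between the PBS sarcomas for Bok was no larger than the counting error of these genes.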
